A study of Homo sapiens with 65 samples.

Results

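Cardioids given hyaluronidase from day 2.5 to day 7.5 (HAse2.5, a late start) were compared with untreated cardioids of the same age. The 6 libraries, 3 of each group, were chosen from their titles among the 65 of the series, and each group held 1 library of each of 3 lines called TNNI1, WT and TNNT2. All 6 came from WTC-11, an established human induced pluripotent stem cell line, and carried the genotype label WT. Left-ventricular cardioids are self-organised heart-like aggregates. Every group was induced to mesoderm with activin A, BMP4, CHIR99021, LY294002 and FGF2, and then patterned in low-attachment wells with retinoic acid, the WNT secretion inhibitor C59, insulin, BMP4 and FGF2. Both groups were collected on day 7.5. Further libraries serve for comparison: the same lines at day 4.5 with and without the late enzyme, the same lines at day 7.5 with hyaluronidase from day 1.5 (HAse1.5), and day 7.5 cardioids of clones labelled HAS2 knockout (KO) with their wild-type (WT) counterparts, none given enzyme. For each library 8 cardioids were pooled and read by 3′ mRNA sequencing, which counts reads near the end of polyadenylated transcripts. The enzyme's dose and source are not given in the sources used here, nor is what sets the TNNI1 and TNNT2 lines apart from WT.

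Hyaluronan is a long unbranched sugar chain that synthases at the cell membrane, mainly HAS2 in the embryonic heart, extrude into the space around cells. In the early heart tube it fills the cardiac jelly, the gel between myocardium and endocardium, and it is held in place there by the proteoglycan versican and by link proteins such as HAPLN1. Cells sense it through receptors such as CD44, and hyaluronidases cut the chain into fragments. The comparison asks which transcripts differ when hyaluronidase is given from day 2.5 onward. Hyaluronan itself was not measured in these libraries.

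Total counts of the 6 libraries ran from 1120719 to 1567012, against 831062 to 3574843 over the series (median 1570954), so that 3 counts, the floor used here, stand for 1.91 to 2.68 counts in 1000000 (CPM). Mitochondrial transcripts took 1.05%, 0.902% and 2.39% of counts in untreated and 0.832%, 0.630% and 0.809% in HAse2.5 libraries (lines TNNI1, WT and TNNT2, the order used for every trio of values below). The untreated TNNT2 library thus held the largest mitochondrial share, and its part in the results was not tested beyond the fits without it. Of 28 cardiomyocyte markers 27 passed the filter on low counts. MYL2, the ventricular light chain, did not, with no count in HAse2.5 and 5, 1 and 9 counts in untreated libraries. Their summed level was 82500, 52770 and 61190 CPM in HAse2.5 and 93990, 87930 and 101900 CPM in untreated libraries.

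After late hyaluronidase, transcripts of 3 liver-type genes, the slow myosin MYH7, dystrophin, a laminin and a collagen IV chain were lower. So were several cell cycle genes. The hyaluronan link protein HAPLN1, 2 feedback inhibitors of FGF signalling (SPRY2 and DUSP6), a collagen V chain and the collagen chaperone SERPINH1 were higher. By edgeR's quasi-likelihood test over the 24 libraries of the enzyme arm, 84 of 12748 genes that passed a filter on low counts were called, that is, had a Benjamini-Hochberg adjusted p under 0.05 (0.659%). Of these, 44 rose (0.345%) and 40 fell (0.314%), while 1717 had an unadjusted p under 0.05. The 3 HAse2.5 libraries did not overlap the 3 untreated ones in any of the 84, and in each of them every line moved the same way. Groups that lie apart, where stated below for a called gene, are thus no further support for it. Over all genes tested, groups lay apart with HAse2.5 higher in 9.55% and lower in 7.37%, and 22.4% and 16.3% were higher or lower in all 3 lines. The median log2 fold change was 1.47 among the genes that rose and −1.72 among those that fell, against −0.01 over all genes tested. With line as a block, 132 genes passed (1.04%; 72 higher, 0.565%, and 60 lower, 0.471%), among them all 84.

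The count depends on single libraries. It fell to 27, 18, 26, 13 and 3 without, in turn, the untreated TNNI1, untreated TNNT2, HAse2.5 TNNI1, HAse2.5 WT and HAse2.5 TNNT2 library, and rose to 377 without the untreated WT library. Of the 53 called genes named here, 18, 16, 18, 12, 3 and 49 were still called in these 6 fits. The 3 that passed in every fit were HAPLN1, PPFIA2 and PHACTR1.

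**Figure D1:**
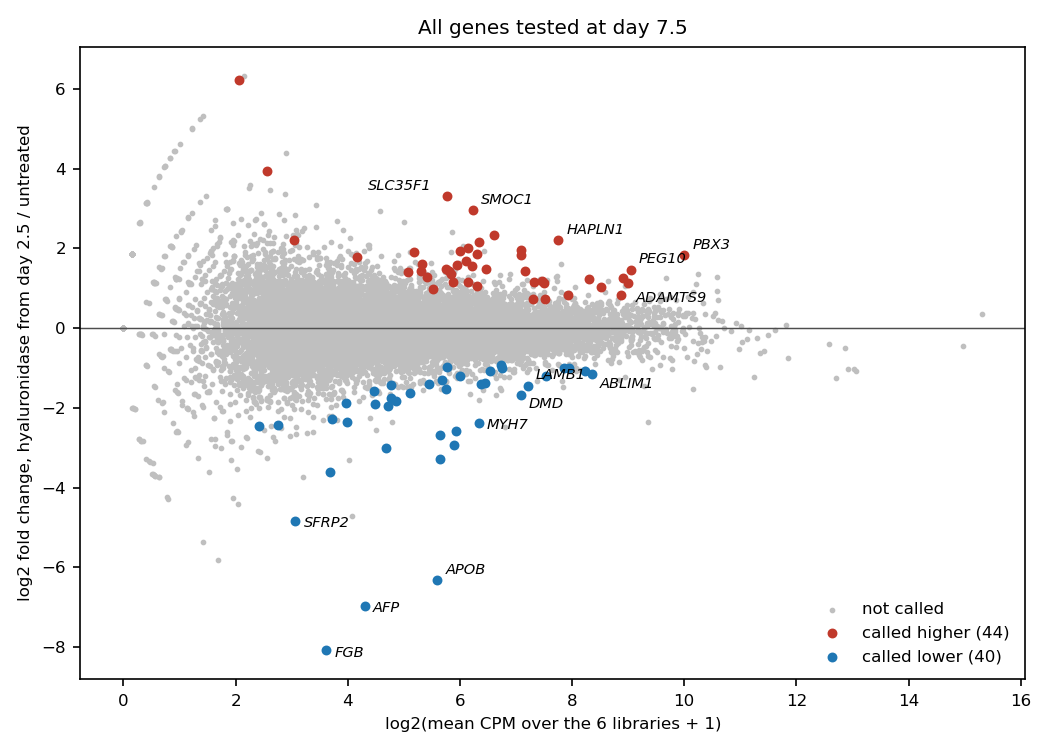
Log2 fold change of HAse2.5 against untreated cardioids at day 7.5 (vertical axis) over log2 of the mean CPM plus 1 (horizontal axis), 1 point for each of 12748 genes. Red points are the 44 genes that rose and blue points the 40 that fell. APOB, AFP and FGB lie lowest, and values of genes with few or no counts in 1 group are fitted ones.

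Among the genes of hyaluronan synthesis, turnover and binding, 1 of 19 tested rose and none fell (median 0.22). It was HAPLN1 (ENSG00000145681, chromosome 5, 83637805 to 83721613 on GRCh38), the link protein that locks hyaluronan to versican. HAPLN1 had 246, 396 and 426 CPM in HAse2.5 and 75, 70.2 and 76.4 CPM in untreated libraries (log2 fold change 2.20, SE 0.25, adjusted p 4.85e-05). The untreated values lay close together and every HAse2.5 library lay above them. It was the gene with the smallest p of all tested, and in the 6 fits that left out 1 library its highest adjusted p was 0.000683. HAS2, the synthase itself, had 469, 464 and 398 CPM in HAse2.5 and 339, 251 and 269 CPM in untreated libraries. All HAse2.5 values lay above the untreated ones, but the difference did not pass (log2 fold change 0.57, SE 0.29, adjusted p 0.386). VCAN, which encodes versican and was the member with the most counts, had 3441, 2471 and 2569 CPM against 5759, 4633 and 3339.8 CPM (−0.74, adjusted p 0.223), with groups that overlapped. UGP2, which makes the UDP-glucose from which hyaluronan precursors are drawn, stood at 313, 237 and 267 against 306, 461 and 496 CPM (−0.69, adjusted p 0.197).

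Matrix genes were called in both directions. Of 18 basement membrane genes 2 fell and none rose (median −0.23), and of 24 fibrillar and interstitial matrix genes 1 rose and none fell (median 0.43). LAMB1, a laminin chain, had 72, 105 and 67.5 CPM in HAse2.5 against 184, 276 and 177 CPM in untreated libraries (log2 fold change −1.44, SE 0.28, adjusted p 0.0174). COL4A1, a collagen IV chain, had 26.3, 22.1 and 36.7 against 73.2, 58.1 and 102 CPM (log2 fold change −1.52, SE 0.32, adjusted p 0.0303). Both were low in every HAse2.5 library. COL4A2, the partner chain, which lies head to head with COL4A1 on the opposite strand and overlaps it in the annotation, stood at 66.4, 113 and 107 against 139, 242 and 133 CPM, groups that lay apart without passing (−0.90, adjusted p 0.217). HSPG2, which encodes perlecan, and COL18A1, the member with the most counts, did not pass (−0.92, adjusted p 0.223 and −0.46, adjusted p 0.563). LAMB1 was still called in 4 of 6 and COL4A1 in 1 of 6 fits without 1 library, the highest adjusted p being 0.128 and 0.194.

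The RefSeq window of the COL4A1 start (GRCh38.p14, minus strand, chr13:110307108-110307407, 250 bases before to 50 after the start) is shown because it holds the start of the called chain.
COL4A1 promoter: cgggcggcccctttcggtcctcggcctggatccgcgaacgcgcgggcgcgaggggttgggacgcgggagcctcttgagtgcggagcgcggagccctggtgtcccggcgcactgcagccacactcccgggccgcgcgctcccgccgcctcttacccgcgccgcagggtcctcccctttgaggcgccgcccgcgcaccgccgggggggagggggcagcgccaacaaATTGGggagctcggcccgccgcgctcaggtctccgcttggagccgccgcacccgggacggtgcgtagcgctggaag
Capitals mark a match to CCAAT, the box bound by NF-Y, searched on both strands. It begins 26 bases before the start on the strand opposite to the gene, and 34.6% of 35116 such windows hold these letters.

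COL5A1, a fibril-initiating collagen V chain, rose from 203, 131 and 176 to 318, 323 and 305 CPM (log2 fold change 0.84, SE 0.19, adjusted p 0.0386). Among 19 matrix proteases and inhibitors 2 rose and none fell (median −0.08). SERPINH1, the collagen chaperone HSP47, had 419, 475 and 441 CPM in HAse2.5 and 159, 287 and 104 CPM in untreated libraries (log2 fold change 1.23, SE 0.27, adjusted p 0.0348). ADAMTS9, the member with the most counts and a protease that cleaves versican, had 883, 591 and 638 against 447, 248 and 239.6 CPM (log2 fold change 1.13, SE 0.26, adjusted p 0.039). All 3 HAse2.5 libraries were high for each of these genes, and for SERPINH1 they were also closer to each other than the untreated ones. COL5A1, SERPINH1 and ADAMTS9 were still called in 0 of 6, 1 of 6 and 1 of 6 fits without 1 library. FN1, which encodes fibronectin, passed with line as a block (adjusted p 0.0399) and not without it (1.28, adjusted p 0.139): within each line it was higher after the enzyme, with 913, 3229 and 2440.1 against 452, 1272 and 850.2 CPM. The tissue inhibitor TIMP3 likewise passed with the block alone (0.0401; 1.19, adjusted p 0.101 without it), at 424, 607 and 657 against 179, 419 and 113 CPM. THBS4, COL8A1 and MMP15 lay apart between the groups and did not pass (1.5, adjusted p 0.102, 1.95, adjusted p 0.107 and 0.67, adjusted p 0.233).

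Genes of the cell surface and of other sugar chains gave no call: none of 8 glypicans and syndecans, none of 26 genes of glycosaminoglycan chain synthesis and none of 13 integrins passed (medians −0.28, 0.04 and 0.01). GPC3, a heparan sulfate proteoglycan of the membrane that binds growth factors, had 6.23, 11.4 and 12.4 CPM in HAse2.5 and 37.5, 34.5 and 21.5 CPM in untreated libraries. The groups lay apart, with adjusted p 0.0772, or 0.0509 with the block (log2 fold change −1.68, SE 0.43). HS6ST2, a heparan sulfate 6-O-sulfotransferase, was near the floor in HAse2.5 libraries (2.08, 0 and 0.655 against 8.03, 12.1 and 6.68 CPM, adjusted p 0.0901). The collagen receptor subunit ITGA2 had 13.8, 9.39 and 11.8 against 1.78, 0 and 1.48 CPM (adjusted p 0.0797). The members of the 3 groups with the most counts were SDC3 (0.38, adjusted p 0.53), EXTL2 (−0.13, adjusted p 0.846) and ITGB1 (0.27, adjusted p 0.688).

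Several transcripts of liver-type endoderm, a foregut lineage that arises beside the heart and makes plasma proteins, were present in untreated cardioids and at or near 0 after late hyaluronidase. APOB, the scaffold protein of low-density lipoprotein, had 0.692, 2.01 and 0.655 CPM in HAse2.5 and 215, 23 and 42.3 CPM in untreated libraries (log2 fold change −6.32, SE 1.06, adjusted p 0.0106; ENSG00000084674, chromosome 2, 21001429 to 21044073). AFP, alpha-fetoprotein of yolk sac and fetal liver, had 0, 0 and 0.655 against 83.9, 18.5 and 9.64 CPM (adjusted p 0.0127; ENSG00000081051, chromosome 4, 73431138 to 73456174). That is 1 count in all against 136, an untreated to HAse2.5 ratio of 150.4 with a 95% interval from 26.5 to 5983 that covers counting error only. FGB, the fibrinogen beta chain, had no count in any HAse2.5 library and 48.2, 17.2 and 2.23 CPM in untreated ones (adjusted p 0.0358; ENSG00000171564, chromosome 4, 154562956 to 154571086), at least 11.2-fold lower with a floor of 3 counts in each library. The untreated TNNI1 library was the highest for all 3 genes, and the untreated libraries spread widely among themselves. Without the untreated TNNI1 library the calls of APOB, AFP and FGB had adjusted p 0.0273, 0.065 and 0.136, and they were kept in 3 of 6, 2 of 6 and 2 of 6 fits without 1 library.

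Of 33 endoderm and liver-type markers 14 could be tested, of which 3 fell and none rose (median −1.63, or −1.24 with genes at 0 set to their bound). In HAse2.5 libraries APOB, AFP and FGB had 5, 1 and 0 counts in all, too few to pass the filter there. A member that passes the filter through untreated libraries alone can hardly do other than fall. The 3 calls and the median are thus in part set by the filter. APOA2, an apolipoprotein of high-density lipoprotein, passed with the block alone (adjusted p 0.042, 0.145 without it), at 0.692, 0 and 2.62 against 67.8, 7.02 and 17.1 CPM. The summed level of all 33 was 219, 116 and 127 CPM in HAse2.5 and 943, 274 and 398 CPM in untreated libraries, which do not overlap. This sum takes in APOB, AFP and FGB, so it is no further support for the list. Whether the groups lie apart without these 3 genes was not tested. Markers below the filter were lower in counts: AHSG, a liver glycoprotein, had 36, 4 and 7 counts in untreated and none in HAse2.5 libraries, A1CF, the editing cofactor of APOB mRNA, 25, 3 and 10 against none, TTR 15, 5 and 7 against none, and SERPINA1 49, 8 and 2 against 2, 0 and 0. In HAse2.5 libraries 17 of the 33 had no count, and in untreated libraries 3 did, APOC3 and S100A14 among them. The defining transcription factors were scarce in both groups, with 8 counts of HNF4A and 6 of FOXA2 over the 3 untreated libraries and none in HAse2.5. Some markers lay closer or the other way. APOA1, the main apolipoprotein of high-density lipoprotein, had 82.4, 41.6 and 70.7 CPM in HAse2.5 and 106, 48.5 and 119 CPM in untreated libraries, lower in each line with groups that overlapped, and ALB had 3 counts in each group. Of the 14 tested, 3 had a log2 fold change above 0, none of which passed: CXCR4, a chemokine receptor of early endoderm and other cells, with 5, 1 and 2 counts in HAse2.5 and 1, 0 and 0 in untreated libraries (ratio 7.24, 95% counting interval 0.970 to 321), and the transcription factors SOX17 with 8 against 6 counts and FOXA3 with 6 against 5 over each group. CLDN6, a tight junction protein and the tested member with the highest mean CPM, stood at 67.1, 22.8 and 19 against 167, 61.9 and 142 CPM (−1.81, adjusted p 0.176). In these pooled aggregates fewer cells of a type and less RNA per cell cannot be told apart.

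The promoters of AFP and FGB are shown because both genes went to or near 0. Both windows are on chromosome 4, plus strand, of GRCh38.p14 in RefSeq (chr4:73435971-73436270 and chr4:154562730-154563029, 250 bases before to 50 after the start), and FGB has a further window from a start just downstream.
AFP promoter: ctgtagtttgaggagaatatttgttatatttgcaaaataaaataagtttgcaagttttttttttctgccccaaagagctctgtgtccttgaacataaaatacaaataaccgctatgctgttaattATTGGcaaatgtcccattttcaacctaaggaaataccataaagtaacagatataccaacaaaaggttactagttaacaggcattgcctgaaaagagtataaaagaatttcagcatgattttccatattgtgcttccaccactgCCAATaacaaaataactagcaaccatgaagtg
FGB promoter: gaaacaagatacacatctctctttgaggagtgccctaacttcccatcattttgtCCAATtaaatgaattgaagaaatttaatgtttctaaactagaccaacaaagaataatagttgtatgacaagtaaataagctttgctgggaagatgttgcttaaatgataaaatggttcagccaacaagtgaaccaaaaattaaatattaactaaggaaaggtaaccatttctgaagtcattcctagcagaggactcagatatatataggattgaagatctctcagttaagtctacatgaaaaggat
Capitals mark CCAAT, the letters marked in the COL4A1 window too, searched on both strands. In AFP a match begins 125 bases before the start on the opposite strand and another 18 bases after it on the gene's own strand, and in FGB 1 begins 196 bases before the start on the gene's own strand. As given above, 34.6% of such windows hold these letters.

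**Figure D2:**
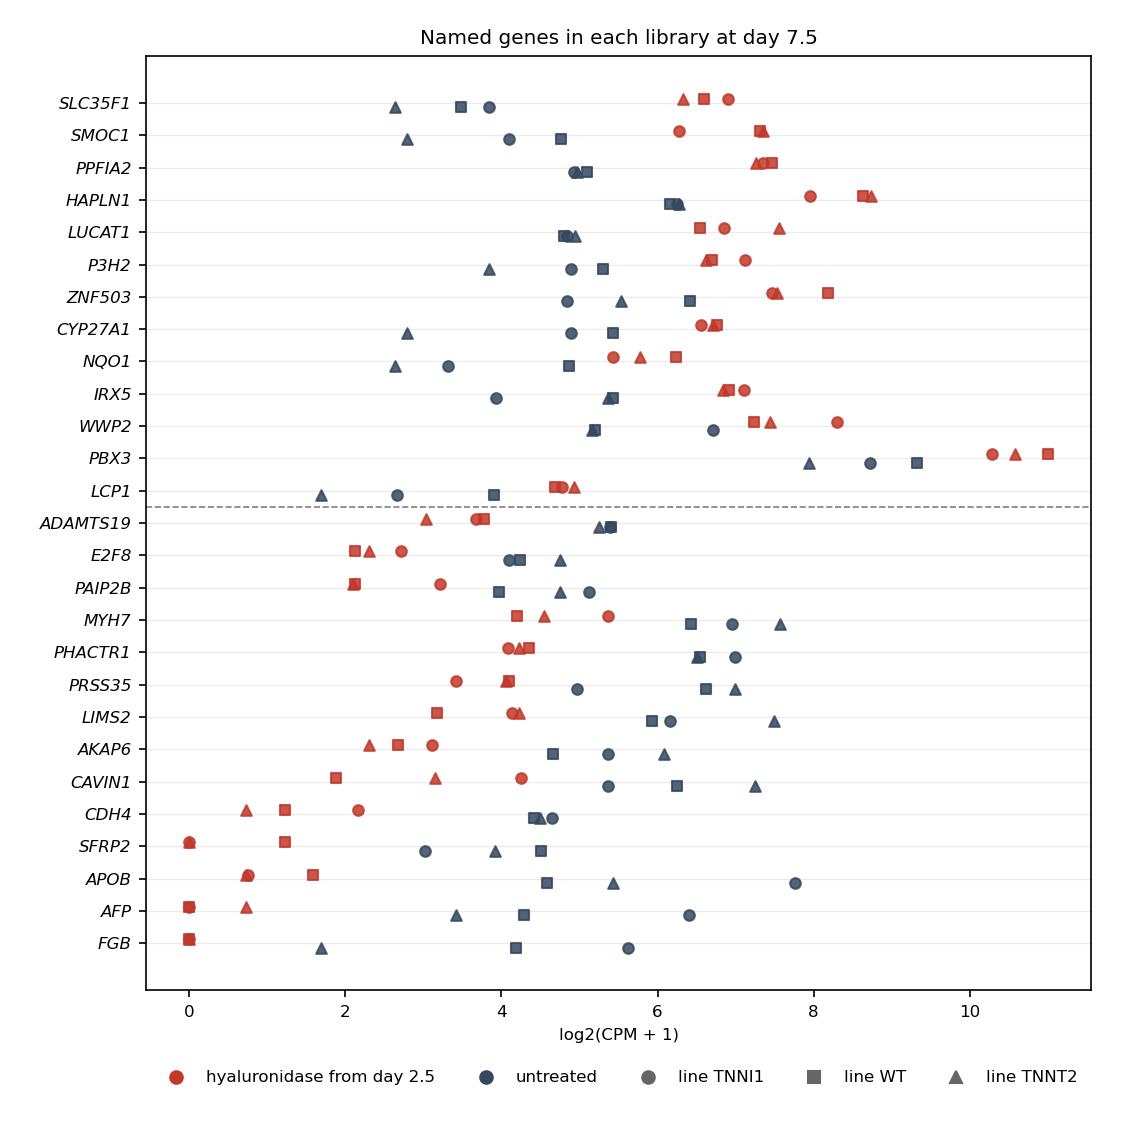
The 27 genes with the largest changes that are reported here, in each of the 6 libraries (horizontal axis, log2 of CPM plus 1). Red marks are HAse2.5 and dark marks untreated libraries, and circles, squares and triangles are lines TNNI1, WT and TNNT2. Above the dashed line are the 13 genes that rose and below it the 14 that fell. In none do the groups overlap, as the choice of genes required.

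Contractile genes of the cardiomyocyte were mostly lower, with 1 call. Of 27 sarcomere genes tested MYH7 fell, none rose, and 25 had a log2 fold change below 0 (median −0.64). Of the 27, 10 lay apart and lower and none apart and higher. Over all genes tested 7.37% lay apart and lower and 9.55% apart and higher, and 6448 of 12748 were below 0. MYH7 (ENSG00000092054, chromosome 14, 23412738 to 23435718), the slow beta myosin heavy chain that marks ventricular muscle as it matures, had 40.1, 17.4 and 22.3 CPM in HAse2.5 and 123, 85.5 and 189 CPM in untreated libraries (log2 fold change −2.37, SE 0.51, adjusted p 0.0385). Each HAse2.5 library was below the lowest untreated one. It was still called in 1 of 6 fits without 1 library (adjusted p up to 0.211). How reads shared with its near-identical neighbour MYH6 were counted is not given in the sources used here. MYH6, the alpha heavy chain of embryonic and atrial cardiomyocytes, had 8964, 4329.5 and 5749.8 against 8905, 8566 and 8414 CPM, with overlap (−0.49, adjusted p 0.76). Troponin C (TNNC1), tropomyosin (TPM1) and alpha-actinin (ACTN2) lay apart and lower without passing (−1.46, adjusted p 0.262, −1.02, adjusted p 0.266 and −1.06, adjusted p 0.229). TNNC1, for instance, had 504, 208 and 312 CPM after the enzyme and 884, 743 and 1089.8 CPM without it. TTN, titin, the member with the most counts, had 35858, 22861 and 24218 against 40392, 33429.9 and 35998 CPM (−0.45, adjusted p 0.538). In every one of these sarcomere genes the HAse2.5 WT library was the lowest of the 6.

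Among 16 genes of the desmosome, intercalated disc and dystrophin complex 1 fell (median −0.39). It was DMD (ENSG00000198947, chromosome X, 31097677 to 33339441), dystrophin, which ties the actin cytoskeleton of muscle to laminin outside the cell, with 80.3, 34.9 and 82.5 CPM in HAse2.5 and 209, 169.8 and 231 CPM in untreated libraries (log2 fold change −1.68, SE 0.31, adjusted p 0.0142; called in 3 of 6 fits without 1 library). LAMA2, the laminin chain to which the dystrophin complex binds in muscle, had 31.1, 67.1 and 34.1 against 152, 146 and 74.2 CPM and passed with the block alone (adjusted p 0.0417, 0.13 without it). N-cadherin (CDH2) lay apart and lower (−0.75, adjusted p 0.161), and desmoplakin (DSP), the member with the most counts, overlapped (−0.13, adjusted p 0.84). None of 13 calcium handling genes and none of 12 ion channel and conduction genes passed (medians −0.49 and −0.07). The calcium release channel RYR2 had 997, 991 and 839 against 1645, 1326 and 2164 CPM, apart and lower (−0.92, adjusted p 0.444). The calcium pump ATP2A2 and the kinase CAMK2D were placed likewise (−0.49, adjusted p 0.312 and −0.67, adjusted p 0.214). POPDC2, a cyclic AMP-binding membrane protein of the conduction system, had 42.2, 33.6 and 30.1 against 72.3, 136 and 114 CPM (−1.66, adjusted p 0.169), while TECRL, the channel-list member with the most counts, overlapped (−0.09, adjusted p 0.955).

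Of 24 cardiac transcription factors none passed without the block (median −0.14), and with it IRX3 rose and NR2F2 fell. IRX3, an Iroquois factor of the ventricular conduction system, had 1399, 892 and 1188 CPM in HAse2.5 and 601, 457 and 358 CPM in untreated libraries (log2 fold change 1.25, adjusted p 0.0529, 0.00209 with the block). Its neighbour of the same family, IRX5, rose in the test without a block, from 14.3, 42.1 and 40.1 to 137, 119 and 113 CPM (log2 fold change 1.86, SE 0.35, adjusted p 0.0153; called in 2 of 6 fits without 1 library). NR2F2, COUP-TFII, which specifies atrial identity, had 8.3, 6.04 and 19.6 against 28.6, 37.7 and 55.6 CPM (adjusted p 0.138, 0.0221 with the block). PROX1 lay apart and lower and did not pass (−0.89, adjusted p 0.148), and MYOCD, the coactivator of muscle genes and the member with the most counts, had 939, 1021 and 899 against 694, 849 and 604 CPM (0.36, adjusted p 0.714). Among 19 genes of the retinoid pathway and atrial identity none passed without the block (median −0.44) and NR2F2 alone did with it. The retinoic acid carrier CRABP2 had 59.5, 168 and 181 against 27.7, 56.8 and 16.3 CPM (1.93, adjusted p 0.28).

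None of 14 natriuretic peptide, stretch and YAP-related genes passed (median −0.62), although 13 had a log2 fold change below 0. ANKRD1, a stretch-responsive protein of the sarcomere and a YAP target, had 437, 82.5 and 141 CPM in HAse2.5 and 369, 1630.5 and 1283 CPM in untreated libraries (−2.34, adjusted p 0.295). The untreated TNNI1 library was low and fell among the treated ones, so the groups overlapped. Skeletal actin ACTA1 overlapped too, with 7.61, 8.72 and 3.27 against 0.892, 84.2 and 25.2 CPM (−2.55, adjusted p 0.278): the untreated TNNI1 library was below every treated one, and both other untreated libraries were above them.

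Nearly all genes of mitosis and DNA replication stood lower, with few calls. All 30 mitosis genes tested had a log2 fold change below 0 (median −1.12) and 16 of them lay apart and lower, against 7.37% of all genes, but none passed without the block and KIF11 alone did with it. Of 28 DNA replication genes 1 fell, 26 were below 0 (median −0.68) and 13 lay apart and lower. TYMS, thymidylate synthase, was that gene, with 12.5, 16.8 and 21.6 CPM in HAse2.5 and 55.3, 47.2 and 49 CPM in untreated libraries (log2 fold change −1.63, SE 0.37, adjusted p 0.0386; called in 1 of 6 fits without 1 library). The mitotic kinesin KIF11 had 10.4, 12.7 and 15.1 against 31.2, 34.5 and 26 CPM (adjusted p 0.0797, 0.0443 with the block). CENPF, a kinetochore protein, had 101, 131 and 162 against 436, 291 and 223 CPM (−1.33, adjusted p 0.0642), and the checkpoint kinases BUB1B and BUB1 were close to it (−1.38, adjusted p 0.0772 and −1.38, adjusted p 0.107). TOP2A, topoisomerase II, the mitosis gene with the most counts, had 234, 273 and 305 against 860.2, 479 and 574 CPM (−1.30, adjusted p 0.184): its untreated values spread from line to line, and every HAse2.5 library was below the lowest of them. MCM3 and MCM4 also lay apart and lower without passing (−0.65, adjusted p 0.137 and −1.14, adjusted p 0.18). None of 7 tested D cyclins and CDK inhibitors passed (median −0.13; CCND2 −0.68, adjusted p 0.32).

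Further cell cycle genes outside these lists, chosen after their values were seen, were among the 40 that fell. E2F8, an E2F factor that represses the G1 to S programme, had 5.54, 3.36 and 3.93 against 16.1, 17.9 and 26 CPM (log2 fold change −2.27, SE 0.50, adjusted p 0.0348). CCNA2, cyclin A, had 8.3, 6.71 and 3.93 against 32.1, 26.8 and 9.64 CPM (adjusted p 0.039). MYBL2, a transcription factor of late cell cycle genes, had 13.1, 8.72 and 15.1 against 50.9, 32.5 and 37.8 CPM (adjusted p 0.0386). In each of the 3 the HAse2.5 values lay below all untreated ones. The condensin subunit NCAPD2, the centromere protein CENPI and the spindle protein CKAP2 fell as well (−1.58, adjusted p 0.0192, −2.46, adjusted p 0.0369 and −1.20, adjusted p 0.0358). CENPI had 1, 1 and 4 counts in HAse2.5 and 8, 12 and 10 counts in untreated libraries, so its treated values lie near or under the floor. E2F8, CCNA2, MYBL2, NCAPD2, CENPI and CKAP2 were kept in 1 of 6, 2 of 6, 1 of 6, 1 of 6, 1 of 6 and 1 of 6 fits without 1 library.

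**Figure D3:**
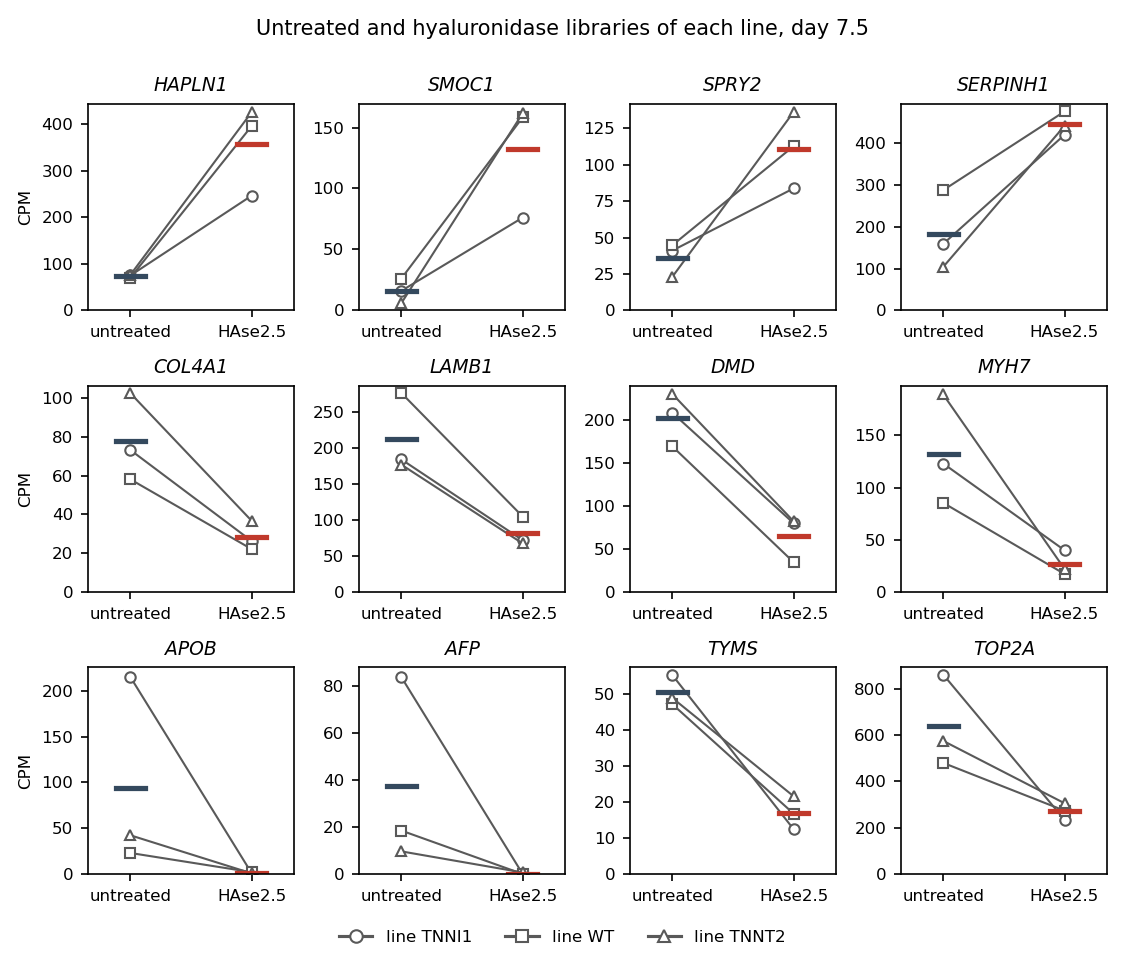
CPM of 12 genes (vertical axis of each panel, starting at 0) in the untreated and the HAse2.5 library of each line, joined by a line. Thick bars are group means of 3. The 4 genes of the top row are higher and the other 8 lower after hyaluronidase in every line.

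Of 22 genes of the FGF and ERK list 2 rose, both of them feedback inhibitors, and none fell (median 0.22). In this list 14 genes had a log2 fold change above 0 and 8 below it. Its other feedback inhibitors were not called without the block. SPRY2, Sprouty 2, which damps receptor tyrosine kinase signalling, had 83.7, 113 and 136 CPM in HAse2.5 and 41, 44.7 and 23 CPM in untreated libraries (log2 fold change 1.55, SE 0.26, adjusted p 0.00703). DUSP6, the phosphatase that inactivates ERK, had 143, 318 and 284 against 93.7, 119 and 96.4 CPM (log2 fold change 1.19, SE 0.28, adjusted p 0.048). IL17RD, which antagonises FGF receptors, passed with the block alone (adjusted p 0.0221, 0.0901 without it), at 78.9, 65.8 and 72.7 against 39.3, 27.4 and 30.4 CPM. All 3 genes were high in every HAse2.5 library. SPRY2 and DUSP6 were kept in 5 of 6 and 2 of 6 fits without 1 library (adjusted p up to 0.0501 and 0.251).

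Of 20 BMP pathway genes 1 rose (median 0.23): BMPER, a secreted BMP-binding regulator, went from 21.4, 33.8 and 25.2 to 47.1, 96.6 and 93.6 CPM (log2 fold change 1.48, SE 0.24, adjusted p 0.00703; kept in 5 of 6 fits without 1 library). The antagonist chordin (CHRD) was low throughout, at 11.1, 12.7 and 12.4 against 1.78, 5.11 and 0 CPM (2.23, adjusted p 0.15), the inhibitory SMAD6 lay apart and lower (−0.72, adjusted p 0.217), and ID2, a BMP target and the member with the most counts, overlapped (0.03, adjusted p 0.96). SMOC1, a secreted matrix protein that binds calcium and modulates BMP signalling, stood outside the list and rose from 16.1, 26.2 and 5.93 to 76.1, 158 and 162 CPM (log2 fold change 2.95, SE 0.52, adjusted p 0.0153; kept in 2 of 6 fits without 1 library). The treated TNNI1 library was the lowest of the treated trio and still above all untreated ones. Of 27 WNT pathway genes 1 fell (median 0.06). SFRP2, a secreted WNT antagonist, had 2 counts over the 3 HAse2.5 libraries and 7.14, 21.7 and 14.1 CPM in untreated ones (adjusted p 0.0488), an untreated to HAse2.5 ratio of 33.7 with a 95% counting interval from 8.94 to 285. It was called in 0 of 6 fits without 1 library. WNT5A lay apart and higher (0.72, adjusted p 0.178), and SFRP1, the member with the most counts, overlapped (−0.11, adjusted p 0.935). None of 12 NOTCH pathway genes and none of 17 semaphorins and receptors passed (medians 0.24 and 0.01; RBPJ 0.27, adjusted p 0.516; NRP2 0.30, adjusted p 0.767; SEMA3A 1.32, adjusted p 0.23).

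In energy metabolism single genes passed. SLC2A3, the neuronal-type glucose transporter GLUT3, rose from 258, 327 and 237 to 875, 593 and 582 CPM (log2 fold change 1.27, SE 0.24, adjusted p 0.0153; kept in 2 of 6 fits without 1 library), 1 of 27 genes of glycolysis and hypoxia (median −0.15). GAPDH and PKM, glycolytic enzymes, overlapped (−1.02, adjusted p 0.304 and −0.97, adjusted p 0.282), and GAPDH was highest in the untreated TNNT2 library (9788, 4888 and 16199 CPM untreated, 6997, 3730.3 and 5169.6 CPM in HAse2.5). Cytochrome c (CYCS) passed with the block alone (adjusted p 0.0443, 0.0654 without it) among 37 respiratory chain genes with no other call (median 0.20), at 140.5, 142 and 136 against 208, 193 and 259 CPM. COX4I1, which had the most counts of them, lay apart and lower (−0.48, adjusted p 0.275). None of 35 genes of the TCA cycle and fatty acid oxidation passed (median 0.05; HADHA −0.26, adjusted p 0.475; ACADVL 0.87, adjusted p 0.139). MVD, mevalonate diphosphate decarboxylase of sterol synthesis, fell from 35.7, 31.3 and 46.7 to 15.9, 14.8 and 13.1 CPM (log2 fold change −1.43, SE 0.34, adjusted p 0.0466; kept in 1 of 6 fits without 1 library), 1 of 27 genes of sterol and fatty acid synthesis (median −0.04). NSDHL and SC5D, other enzymes of that list, lay apart in opposite directions without passing (−0.92, adjusted p 0.153 and 1.04, adjusted p 0.139).

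Stress genes gave no call: none of 17 p53 targets and apoptosis genes, of 17 unfolded protein and stress genes and of 11 interferon and inflammation genes passed (medians −0.02, 0.09 and 0.28; XPC 0.54, adjusted p 0.32; FDXR 1.32, adjusted p 0.154; HSPB1 0.04, adjusted p 0.955; IFITM3 −0.03, adjusted p 0.985). Outside these lists NQO1, a quinone reductase of the oxidative stress response, rose from 8.92, 28.1 and 5.19 to 42.2, 74.5 and 53.7 CPM (log2 fold change 1.90, SE 0.45, adjusted p 0.0478). NFE2L2, which encodes NRF2, the factor that drives NQO1, rose from 89.2, 115 and 83.1 to 182, 275 and 212 CPM (log2 fold change 1.16, SE 0.26, adjusted p 0.0358), a gene chosen after its values were seen. LUCAT1, a stress-induced long noncoding RNA, rose from 27.7, 26.8 and 29.7 to 114, 92.6 and 187 CPM (log2 fold change 2.16, SE 0.42, adjusted p 0.0192). For NQO1 the untreated WT library was well above the other untreated ones, whereas for LUCAT1 the untreated values were nearly equal. The 3 genes were kept in 1 of 6, 1 of 6 and 3 of 6 fits without 1 library.

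No list of markers of another cell type beside endoderm held a call: endothelial (15 tested, median 0.26), epicardial (10, −0.37), smooth muscle and cytoskeleton (17, −0.17), fibroblast (9, −0.27), neural (7, −0.06), pluripotency (9, −0.11), early mesoderm and cardiac progenitor (20, −0.005) and blood (2 tested, KLF1 and GYPB, with at most 3 counts in any library). Summed over all members, endothelial markers held 361 to 526 CPM in HAse2.5 and 319 to 454 CPM in untreated libraries, epicardial ones 490 to 637 against 535 to 771 CPM, and fibroblast ones 673 to 1438 against 464 to 1387 CPM. Smooth muscle markers held 4958 to 5424 against 3856 to 5806 CPM, neural ones 1356 to 1644 against 1461 to 1953 CPM, and early mesoderm ones 719.7 to 891 against 634 to 918 CPM. Each of these pairs of ranges overlapped. Pluripotency markers lay apart, with 264 to 299 CPM in HAse2.5 and 203 to 245 CPM in untreated libraries, and their part in the results was not tested. TAGLN, a smooth muscle actin-binding protein that early cardiomyocytes also express, had 47.8, 42.3 and 76.6 against 41, 261 and 164 CPM (−1.55, adjusted p 0.0569), where the untreated TNNI1 library lay below the treated ones. ACTA2, smooth muscle actin, lay apart and higher (0.77, adjusted p 0.477). The markers with the most counts in other lists overlapped between the groups: KDR (−0.25, adjusted p 0.729), KRT18 (−0.46, adjusted p 0.452), COL1A1 (−0.39, adjusted p 0.651), NES (−0.06, adjusted p 0.952) and ZEB2 (0.02, adjusted p 0.988). LIN28B, of the pluripotency list, lay apart and higher (0.62, adjusted p 0.149). In the pluripotency list ZFP42, PRDM14, UTF1 and ESRG had no count in any of the 6 libraries.

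**Figure D4:**
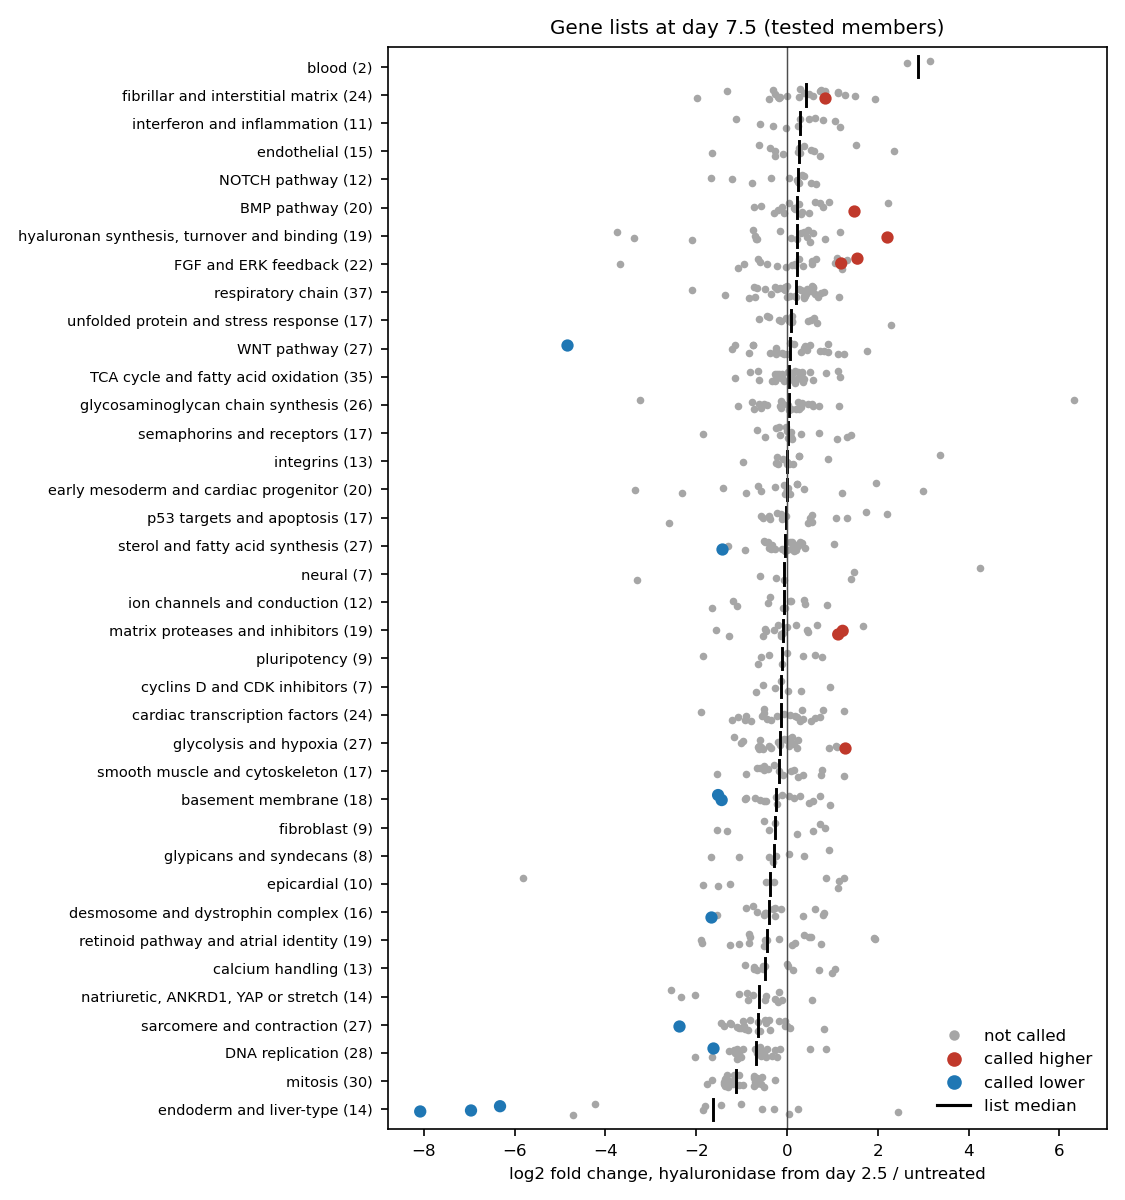
Log2 fold changes of the tested members of 38 gene lists (horizontal axis), 1 row a list with the number tested in brackets, sorted by the list's median (black bar). Large red and blue points are members that rose or fell. The endoderm and liver-type list holds 3 that fell, the most of any list, and all mitosis genes lie left of 0. Those 3 had too few counts in HAse2.5 libraries to pass the filter there.

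Of the 14 genes with the largest rise, HAPLN1, SMOC1, IRX5, NQO1 and LUCAT1 have been described. SLC35F1, a membrane protein of a solute carrier family, had the largest one, 119, 95.3 and 79.2 CPM against 13.4, 10.2 and 5.19 CPM (log2 fold change 3.31, SE 0.72, adjusted p 0.0386). PPFIA2, a liprin scaffold of cell contacts and synapses, had 163, 175 and 152 against 29.4, 33.2 and 30.4 CPM (log2 fold change 2.33, SE 0.38, adjusted p 0.00703), with little spread in either group. PBX3, a homeodomain cofactor of HOX and MEIS proteins, had 1246, 2056 and 1531 against 422, 638 and 246 CPM (log2 fold change 1.83, SE 0.36, adjusted p 0.0199). Groups that lie apart were required of both genes for this choice. ZNF503, a zinc finger repressor, had 175, 291 and 184 against 27.7, 84.2 and 45.3 CPM (1.97, adjusted p 0.0451). P3H2, a prolyl 3-hydroxylase of collagen, had 138, 103 and 97.6 against 28.6, 38.3 and 13.4 CPM (2.02, adjusted p 0.0358). CYP27A1, the mitochondrial sterol 27-hydroxylase, had 92.7, 107 and 103 against 28.6, 42.1 and 5.93 CPM (1.92, adjusted p 0.0369). In P3H2 and CYP27A1 the untreated TNNT2 library was the lowest, as it was in 26 of the 44 genes that rose. How often it was the lowest over all genes tested was not counted. WWP2, a ubiquitin ligase, had 314, 150.3 and 172 against 104, 35.7 and 34.9 CPM (1.84, adjusted p 0.0162), and LCP1, the actin-bundling L-plastin, 26.3, 24.8 and 29.5 against 5.35, 14 and 2.23 CPM (1.78, adjusted p 0.0456). SLC35F1, PPFIA2, PBX3, ZNF503, P3H2, CYP27A1, WWP2 and LCP1 were called in 0, 6, 2, 1, 1, 1, 3 and 1 of 6 fits without 1 library.

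Of the 14 with the largest fall, APOB, AFP, FGB, SFRP2, MYH7 and E2F8 have been described. PHACTR1, a regulator of actin and of protein phosphatase 1, had 15.9, 19.5 and 17.7 CPM in HAse2.5 and 126, 92.5 and 89.8 CPM in untreated libraries (log2 fold change −2.59, SE 0.39, adjusted p 0.0032; ENSG00000112137, chromosome 6, 12716805 to 13290484). CDH4, R-cadherin, had 3.46, 1.34 and 0.655 against 24.1, 20.4 and 21.5 CPM (log2 fold change −3.60, SE 0.68, adjusted p 0.0153). CAVIN1, the coat protein of caveolae, had 18, 2.68 and 7.86 against 40.2, 75.3 and 151 CPM (log2 fold change −3.27, SE 0.67, adjusted p 0.0279). LIMS2, the focal adhesion adaptor PINCH2, had 16.6, 8.05 and 17.7 against 70.5, 60 and 179 CPM (−2.93, adjusted p 0.0322). In each of these 4 every untreated library lay above all treated ones, as the choice of genes required. For CAVIN1 and LIMS2 the untreated TNNT2 library was the highest. AKAP6, which anchors signalling enzymes at the nuclear envelope of muscle cells, had 7.61, 5.37 and 3.93 against 40.2, 24.2 and 66.8 CPM (−3.0, adjusted p 0.039). PRSS35, a serine protease-like protein, had 9.69, 16.1 and 15.7 against 30.3, 97.6 and 126 CPM (−2.68, adjusted p 0.0106), and ADAMTS19, a secreted metalloprotease, 11.8, 12.7 and 7.2 against 41, 41.5 and 37.1 CPM (−1.96, adjusted p 0.0283). PAIP2B, an inhibitor of poly(A)-binding protein, had 8.3, 3.36 and 3.27 against 33.9, 14.7 and 26 CPM (−2.35, adjusted p 0.0348). PHACTR1, CDH4, CAVIN1, LIMS2, AKAP6, PRSS35, ADAMTS19 and PAIP2B were called in 6, 4, 3, 1, 1, 2, 1 and 2 of 6 fits without 1 library. PPFIA2, LUCAT1, PHACTR1, LIMS2, COL4A1, LAMB1, TYMS, CCNA2, NCAPD2, TIMP3 and NFE2L2 overlap a gene on the opposite strand. Some reported genes that did not pass do too, among them ACTA2, CHRD, CLDN6, COL18A1, COX4I1 and ACADVL. The strand setting of the counts is not given in the sources used here.

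The late-start effect could be followed back to day 4.5, where the same 3 lines were sampled with and without the enzyme. There 28 of 12748 genes passed (0.22%), and 8 of them were also among the 84 of day 7.5 (9.52% of the 84, 28.6% of the 28). HAPLN1 was already higher at day 4.5 (log2 fold change 1.09, adjusted p 0.0414), as were PPFIA2 (2.03, 0.0358), SPRY2 (1.29, 0.0228), BMPER (1.29, 0.00957) and LUCAT1 (2.34, 0.0183). DMD (−3.36, 0.00428) and CLU, the secreted chaperone clusterin (−1.98, 0.0113), were already lower. CDH4 stood at −0.06 at day 4.5 (adjusted p 1) and −3.60 at day 7.5, and CAVIN1 at 0.14 (adjusted p 1) and −3.27. The difference between the days was itself tested with edgeR, and no gene passed (0%), with 609 at an unadjusted p under 0.05 and a smallest adjusted p of 0.466. With line as a block none passed either, and DESeq2 called 1. A change that passed on day 7.5 and not on day 4.5 is therefore not shown to be specific to the later day.

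An earlier start of the enzyme, on day 1.5 (HAse1.5), was sampled on day 7.5 in the same lines and has the same untreated controls, so its values are set beside those of the late start and not correlated with them. It gave 425 calls (3.33%). HAPLN1 stood at 2.90 on the log2 scale after the early start (adjusted p 2.72e-07) and 2.20 after the late one, MYH7 at −2.89 (0.00403) and −2.37, DMD at −2.41 (0.000107) and −1.68, and CAVIN1 at −5.38 (0.000473) and −3.27. WWP2 stood at 0.59 (0.431) and 1.84, COL5A1 at 0.05 (0.937) and 0.84, and CDH4 at −0.90 (0.422) and −3.60. CDH4 had 9.78, 2.88 and 25.1 CPM after the early start, a wide spread. After the late start it had 5, 2 and 1 counts, near or under the floor. Tested directly, the start days differed in 1 gene (0.00784%), or 13 with line as a block, and 719 had an unadjusted p under 0.05. The gene was GPC3 (ENSG00000147257), with 6.23, 11.4 and 12.4 CPM after the late start, 125, 87 and 99.7 CPM after the early start and 37.5, 34.5 and 21.5 CPM untreated. The late-start libraries lay below and the early-start ones above every untreated library (late minus early log2 fold change −3.31, SE 0.42, adjusted p 0.000515). GPC3 passed in 12 of 12 alternative fits of this difference (highest adjusted p 0.0175).

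Clones labelled HAS2 knockout (2 libraries of clone cl4 and 1 of cl14) were compared at day 7.5 with 3 WT libraries, a separate set of controls. The HAS2 transcript had 315 ± 56.3 CPM in libraries labelled KO and 271 ± 88.5 CPM in WT libraries (SD, n = 3; log2 fold change 0.18, adjusted p 1). Counts come from the 3′ end and the edited site is not given in the sources used here, so the transcript does not check the label. The comparison gave 48 calls of 13797 genes (0.348%), of which 1, CCNA2, was also among the 84 (−3.01, adjusted p 1.63e-08). HAPLN1 stood at 1.46 in libraries labelled KO against WT (adjusted p 0.247), PPFIA2 at 1.57 (0.284), MYH7 at −1.19 (0.726), DMD at −0.69 (1) and SPRY2 at 0.46 (1). The difference between the late enzyme effect and the KO effect passed in 11 of 14047 genes (0.0783%), among them 4 of the endoderm and liver-type markers. APOB had 89.6, 65.1 and 199 CPM in libraries labelled KO and 11.8, 28.6 and 44 CPM in WT libraries against 0.692, 2.01 and 0.655 CPM in HAse2.5 and 215, 23 and 42.3 CPM in untreated ones (enzyme minus KO −8.37, SE 1.21, adjusted p 6.53e-05). AFP and FGB also passed (adjusted p 0.011 for each), and so did A1CF (0.0498). In libraries labelled KO, AFP had 45.8, 24.7 and 48.9 CPM and FGB 27.9, 24.7 and 76 CPM, so neither was near 0 there. WT libraries had 21.6, 13.3 and 40.7 CPM of AFP and 5.64, 10.5 and 20 CPM of FGB. In the test of KO against WT, APOB (adjusted p 0.284), FGB (adjusted p 0.793) and AFP did not pass. NR2F2 had 52.4, 24.1 and 45.5 CPM in libraries labelled KO and 5.64, 18.1 and 8.41 CPM in WT libraries, which lay apart and lower, the opposite order to that after enzyme (−3.81, adjusted p 0.0444). The count went from 1 to 39 over fits that left out 1 library. The intervention (enzyme or label KO), the lines, and the arm of the study with its own range of library numbers differ together between the 2 effects. Their parts cannot be told apart.

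**Figure D5:**
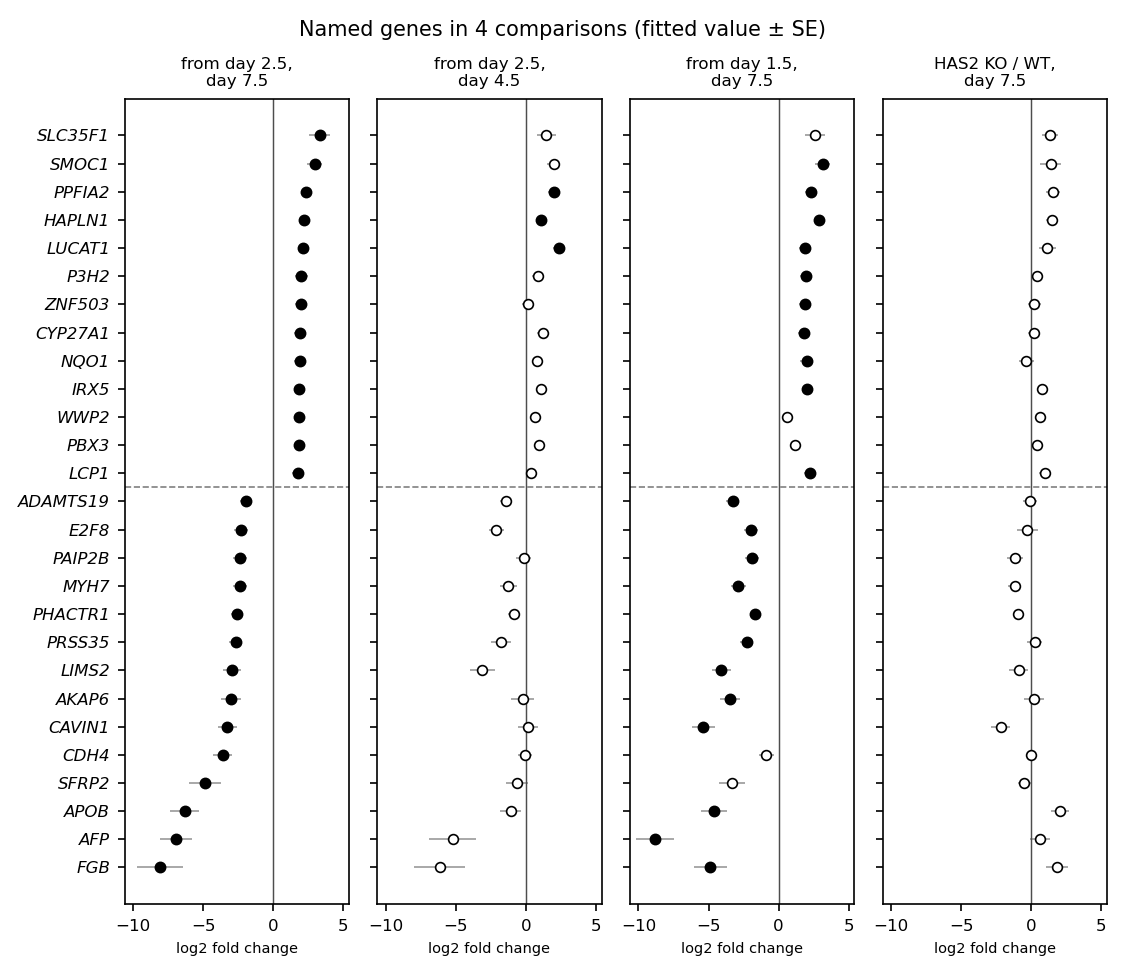
Log2 fold change with its SE (horizontal axes) of the 27 genes with the largest late-start changes that are reported here, in 4 comparisons from left to right: the late start at day 7.5, the late start at day 4.5, the early start at day 7.5, and HAS2 KO against WT at day 7.5. Filled points passed an adjusted p of 0.05. The panels of the late and the early start at day 7.5 share their untreated libraries. APOB, AFP and FGB lie above 0 in libraries labelled KO, where none of them passed.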

How the data were processed

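The deposited table holds whole-number read counts per Ensembl gene, which the authors made with featureCounts (Subread 1.6.2, hg38/GRCh38), per the submitters' processing notes. Aligner, annotation, strand setting, treatment of reads that match several genes and any use of molecular identifiers are not given in the sources used here. The table has 4 further columns that match no listed sample and were not used here. All 58735 gene IDs occur in GENCODE 29 (GRCh38), from which positions were taken, and 58207 have a symbol. Promoter windows are from RefSeq and matched 21 of 27 genes by symbol.

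From the deposited counts, CPM were computed as counts scaled to a library total of 1000000. Counts of the 24 enzyme-arm libraries were fitted together in edgeR 4.0.16 (R 4.3.3, limma 3.58.1) with TMM factors and filterByExpr (minimum count 10), by the quasi-likelihood test, with Benjamini-Hochberg adjustment across all genes, no block and a call at 0.05. Sharing the fit gives each comparison 1 estimate of spread over the arm. The KO comparison was fitted with the genotype arm. Alternatives were RLE factors, no filter, DESeq2 1.42.0, only the libraries compared, line as a block, and each library left out in turn. Groups are apart where the lowest value of one exceeds the highest of the other.

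Replicates carry line names, and both groups hold the same 3 lines, so the samples are paired. Deviations from the group mean correlated within a line at 0.247 (TNNI1), 0.327 (WT) and 0.0766 (TNNT2) between the 2 groups. Between different lines the correlations ran from −0.333 to 0.126. The highest, of untreated TNNT2 with HAse2.5 TNNI1, was above that within TNNT2. Replicates differed by more than counting noise (chi-square per degree of freedom 3.59 to 6.95 in HAse2.5 and 7.63 to 14.4 in untreated libraries), and none was a repeat deposit. The labels call the replicates biological.

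Genes named are the 14 largest changes in each direction among called genes with groups apart, a log2 fold change of at least 1 in size and at least 10 CPM in the higher group. Of these, 1 gene is not reported here. HAS2 was added, and from each list the member with the highest CPM and up to 4 with the smallest p. Others are stated to have been chosen after their values were seen. The gene lists and the comparisons were chosen with earlier results of these data known. Their median is given beside that of all genes, with no set test. The 95% intervals are exact and cover counting error only, and 3 counts per library are the floor for groups at 0. The depth of 1120719 to 1567012 counts limits what can be seen of genes near the floor.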

Additional observations from a re-analysis of the deposited data

Results flagged for a closer look

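In 12 genes the effect of the late enzyme differed from another effect by a test of that difference on the log2 scale. Of these, 1 differed between start days: GPC3, whose late minus early difference was −3.31, with levels below untreated after the late start and above it after the early one.

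The other 11 differed between late hyaluronidase and the label HAS2 knockout. The endoderm markers APOB (difference −8.37, SE 1.21, adjusted p 6.53e-05, passing in 16 of 17 alternatives), AFP (difference −7.63, SE 1.4, adjusted p 0.011, passing in 12 of 17 alternatives), FGB (difference −10.09, SE 1.84, adjusted p 0.011, passing in 11 of 17 alternatives) and A1CF (difference −8.95, SE 1.87, adjusted p 0.0498, passing in 4 of 17 alternatives) were lower after enzyme and not lower in libraries labelled KO. A1CF had 0, 0 and 0 CPM in HAse2.5, 22.3, 1.91 and 7.42 CPM in untreated, 8.63, 4.56 and 13.2 CPM in labelled KO and 1.54, 2.79 and 3.23 CPM in WT libraries. FGB too had no count in HAse2.5 libraries, so the fitted sizes for FGB and A1CF are no measure of a fold. AFP had 1 count there, and its fitted size is as uncertain. CDH4 (difference −3.62, SE 0.782, adjusted p 0.0419, passing in 7 of 17 alternatives) was lower after enzyme and had 21.9, 17.6 and 16.1 CPM in labelled KO and 20, 15.3 and 18.1 CPM in WT libraries. NR2F2 had 8.3, 6.04 and 19.6 CPM in HAse2.5, 28.6, 37.7 and 55.6 CPM in untreated, 52.4, 24.1 and 45.5 CPM in labelled KO and 5.64, 18.1 and 8.41 CPM in WT libraries (difference −3.81, SE 0.842, adjusted p 0.0444, passing in 7 of 17 alternatives). CLU had 6.92, 12.7 and 8.51 CPM in HAse2.5, 32.1, 37.7 and 31.2 CPM in untreated, 21.9, 9.76 and 33.4 CPM in labelled KO and 10.8, 11.9 and 5.17 CPM in WT libraries (difference −3.08, SE 0.639, adjusted p 0.0312, passing in 8 of 17 alternatives). The transcription factor gene JUNB stood the other way: JUNB had 9.69, 12.7 and 15.7 CPM in HAse2.5, 1.78, 5.11 and 1.48 CPM in untreated, 4.65, 2.6 and 3.45 CPM in labelled KO and 18.5, 29.3 and 22 CPM in WT libraries (difference 4.77, SE 0.947, adjusted p 0.0177, passing in 12 of 17 alternatives). IL1RL1, the interleukin 33 receptor (difference −11.50, SE 2.5, adjusted p 0.0439, passing in 6 of 16 alternatives), was at 0 in all HAse2.5 and all WT libraries, with 4.46, 1.91 and 3.71 CPM in untreated and 7.3, 0.651 and 5.18 CPM in labelled KO libraries, so its fitted size is no measure of a fold. DDAH2 had 58.8, 99.3 and 117 CPM in HAse2.5, 17, 53 and 17.1 CPM in untreated, 69, 59.9 and 48.9 CPM in labelled KO and 84.2, 54.4 and 59.5 CPM in WT libraries (difference 1.78, SE 0.390, adjusted p 0.0439, passing in 6 of 17 alternatives), and it overlaps CLIC1. RPL37P2 is a processed pseudogene whose reads may be shared with its parent gene (difference 4.12, SE 0.881, adjusted p 0.0418, passing in 6 of 16 alternatives), at 4.15, 2.01 and 7.86 CPM in HAse2.5, 1.78, 0.638 and 0.742 CPM in untreated, 2.65, 0.651 and 0.576 CPM in labelled KO and 8.21, 3.49 and 3.88 CPM in WT libraries. Those IL1RL1 and RPL37P2 values lie near or under the floor of 3 counts.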

How the results depend on the processing

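The number of genes called at day 7.5 (84) was 77 under RLE factors, 199 with DESeq2 (83 of the 84 among them), 354 without a filter (28388 tested), 132 with line as a replicate block, 7 in a fit of the 6 libraries alone and 232 in that fit with the block, and ranged from 3 to 377 when 1 library was left out. The fit of 6 libraries has fewer samples, and the cause of the other differences was not tested. The day difference (0) gave 6 without a filter, 1 with DESeq2, 3 in its libraries alone with the block, and 0 under every other alternative run. The start difference (1) gave 80 without a filter, 39 with DESeq2, 13 with the block and 13 in its libraries alone with the block, and 1 to 4 without 1 library. The difference from the KO effect (11) gave 70 without a filter, 2 in its libraries alone, 13 with the block in the enzyme arm, and 1 to 39 without 1 library. Beyond the genes given in the report, the pairing by line changed the call of IL1RL1 (adjusted p 0.114, or 0.0434 with the block) and no other among the genes named.

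Of 53 named genes that were called, 3 kept the call in all alternatives, and 50 lost it in at least 1 fit without 1 library. Log2 fold changes crossed 0 in 11 named genes, none of them called. Over the fits without 1 library their values ran: TECRL from −0.28 to 0.0446, DSP from −0.22 to 0.0351, EXTL2 from −0.30 to 0.20, ID2 from −0.18 to 0.25, NRP2 from −0.0438 to 0.57, KDR from −0.66 to 0.052, COL1A1 from −0.68 to 0.28, NES from −0.25 to 0.16, ZEB2 from −0.16 to 0.39, HSPB1 from −0.0925 to 0.21, IFITM3 from −0.24 to 0.41. ZEB2 was −0.00397 under RLE factors and −0.00441 with DESeq2, and IFITM3 was 0.0165 with the block and 0.0363 in the 6 libraries with it. At this depth a gene near 3 counts a library cannot be compared.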

Other observations

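Some called genes that belong to no list and fall outside the naming rule, chosen after their values were seen, add to the picture. Talin 2 (TLN2), which couples integrins to actin in muscle, had 89.3, 142 and 119 CPM in HAse2.5 and 198, 308 and 257 CPM in untreated libraries (log2 fold change −1.19, SE 0.22, adjusted p 0.0127). The actin-binding LIM protein ABLIM1 fell from 513, 417 and 396 to 227, 207 and 188 CPM (−1.15, adjusted p 0.0127), and the plasma membrane calcium pump ATP2B4 from 238, 319 and 358 to 174, 159.7 and 139 CPM (−1.01, adjusted p 0.0279). In all 3 genes every treated library lay below every untreated one, as in every called gene that fell. STIM1, the calcium sensor of the endoplasmic reticulum, rose from 33, 37.7 and 15.6 to 81, 88.6 and 73.3 CPM (1.44, adjusted p 0.0127). PEG10, an imprinted gene derived from a retrotransposon, rose from 349, 202 and 265 to 804, 527 and 1011 CPM (1.47, adjusted p 0.00703). The zinc finger factor MECOM rose from 14.3, 33.2 and 11.9 to 33.9, 60.4 and 77.3 CPM (1.44, adjusted p 0.0488). STIM1, PEG10 and MECOM were higher in every treated library than in any untreated one, as was every called gene that rose. TLN2, ABLIM1, ATP2B4, STIM1, PEG10 and MECOM were called in 4, 3, 2, 3, 5 and 2 of 6 fits without 1 library.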
